A study of Mus musculus with 2 samples.

Results

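The vacuolar proton pump (V-ATPase) is the rotary enzyme that acidifies lysosomes, endosomes and phagosomes by coupling ATP hydrolysis to proton transport. Its cytosolic V1 sector binds and splits ATP, its membrane V0 sector carries the protons, and accessory subunits guide assembly and sorting. In phagocytes the acid made by the pump activates cathepsins and other hydrolases, and the Atp6v0d2 isoform of the d subunit is known from macrophages, dendritic cells and osteoclasts. The genes described here are 10 listed pump genes of the 26124 genes counted in both single-cell matrices. They are Atp6v0c, Atp6v0d1 and Atp6v0d2 of V0, Atp6v1a, Atp6v1b2, Atp6v1c1, Atp6v1d, Atp6v1e1 and Atp6v1h of V1, and the accessory subunit Atp6ap1. All 10 were found in both matrices by symbol, and all 10 had UMIs (unique molecular identifiers, counted once per captured transcript) in each of the 10 cultures.

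Lineage-depleted bone marrow (BM) progenitors of C57BL/6 mice aged 8 to 10 weeks were plated with GM-CSF at 20 ng/ml, fed on day 2 with medium holding 40 ng/ml, and given a partial change to medium with 20 ng/ml on day 3. The heme group received heme-albumin at 300 µM on day 3 and the control group received albumin alone. Each group was 1 library of 5 pooled cultures, told apart by antibody hashtags (days 0, 3, 4, 5 and 7 of culture). The cultures of days 0 and 3 had not yet met heme or albumin and give the background difference between the libraries. The series text gives the sampling times in hours that do not all match the hashtag days, and the days are used here. The labels do not say how many mice a culture came from, and no other allele or agent is named. Because there was 1 library per group, no test between the groups was possible, and every interval below is a 95% interval for counting error only.

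The control library had 9252 kept cells and the heme library 9690, with 2319558 to 32835088 UMIs per culture. Kept cells had 1 hashtag, 500 to 5000 detected genes, under 15% mitochondrial and under 30% ribosomal protein UMIs. The libraries differed beyond the exposure. Before the exposure, on day 3, 8.34% of control and 33.9% of heme singlets were over the limit of 5000 genes. This limit removed 4.82% of singlets from the day 7 control culture and 26.1% from its heme counterpart. The ribosomal limit removed 74.9% of singlets from the day 0 control culture. Across genes with 100 or more UMIs, the median ratio of heme to control was 1.25, 1.22, 1.20, 1.17 and 1.20 on days 0, 3, 4, 5 and 7, so a pump gene is read against these values. The cultures also differed in cell content on day 7. The summed level of 9 neutrophil markers was 29695 CPM with heme against 4579 CPM without, and that of 9 dendritic markers 571 against 8048.5 CPM (CPM, a gene's UMIs per 1000000 UMIs of its culture). Of 5 stroma and endothelium markers, Pecam1, which leukocytes also express, was at 3.63 and 24.0 CPM without and with heme on day 7, and the other 4 were each under 1 CPM. In sums over a culture, fewer cells of a type and less RNA per cell cannot be told apart. The libraries shared 112 barcodes, and without them the counts of members past 1.5-fold were the same on all 5 days.

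Promoter windows from RefSeq (build GRCm38.p6) were at hand for 6 of the 10 members: Atp6v0c, Atp6v0d1, Atp6v1a, Atp6v1d, Atp6v1e1 and Atp6ap1. They were searched on both strands for TCACGTGA, the core of the CLEAR element through which TFEB and its relatives act on lysosomal genes, for CACGTG, the E-box that lies inside it, and for TGACNNNGC, the core of the antioxidant response element. Over all 32851 windows of 300 bases, 0.974% held the CLEAR core, 7.15% an E-box and 12.4% the antioxidant core. The CLEAR core was present in 2 of the 6 members, Atp6v1a and Atp6v0d1, and the antioxidant core in 1, Atp6v1a. Printed here are 250 bases before and 20 bases after the start for both, because Atp6v1a had the highest and Atp6v0d1 among the lowest ratios of heme to control on day 7, and for Atp6v0a1, a V0 gene outside the list whose ratio was higher still. Capitals mark the motif matches, and each sequence runs 5′ to 3′ on the strand of its gene. RefSeq may place the start elsewhere than the outermost GENCODE transcript. The Atp6v1a window lies wholly inside its gene, which extends to 44139705. The Atp6v0a1 window likewise lies inside its gene, which begins at 101009452.
Atp6v1a, chr16:44139240-44139509, minus strand: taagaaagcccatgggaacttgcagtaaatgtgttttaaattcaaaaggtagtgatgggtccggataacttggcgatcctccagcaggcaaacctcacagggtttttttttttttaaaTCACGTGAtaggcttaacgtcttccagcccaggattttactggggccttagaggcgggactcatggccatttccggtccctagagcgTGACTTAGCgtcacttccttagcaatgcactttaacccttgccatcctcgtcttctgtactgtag
Atp6v0d1, chr8:105566045-105566314, minus strand: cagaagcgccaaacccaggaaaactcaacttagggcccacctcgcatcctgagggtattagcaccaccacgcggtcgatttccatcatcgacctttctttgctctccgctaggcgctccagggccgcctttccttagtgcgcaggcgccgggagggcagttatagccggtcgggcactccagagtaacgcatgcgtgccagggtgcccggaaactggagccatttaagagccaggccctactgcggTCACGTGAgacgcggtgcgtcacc
Atp6v0a1, chr11:101010148-101010417, plus strand: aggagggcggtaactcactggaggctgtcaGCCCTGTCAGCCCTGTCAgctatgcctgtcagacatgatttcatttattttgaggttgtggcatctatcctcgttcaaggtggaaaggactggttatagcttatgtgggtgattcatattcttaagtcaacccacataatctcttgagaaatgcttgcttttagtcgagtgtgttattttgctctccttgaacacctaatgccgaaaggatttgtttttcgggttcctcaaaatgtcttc
In Atp6v1a the CLEAR core began 132 bases and the antioxidant core 45 bases before the start. In Atp6v0d1 the CLEAR core began 4 bases before the start and ran across it. The Atp6v0a1 window held no CLEAR core and 2 antioxidant cores on the opposite strand, which began 220 and 211 bases before the start. Among pump genes outside the list, the Atp6v0e window held a CLEAR core that began 2 bases after the start. The level of Atp6v0e was lower with heme on day 7. Whether the motifs go with the ratios was not tested. A match is a run of letters and not a measured site.

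Atp6v1a encodes the catalytic A subunit that hydrolyses ATP, and its gene lies at chr16:44085402-44139705 on GRCm38. It differed most between the libraries after the exposure. In the control cultures its level was 50.01, 153, 149, 144 and 127 CPM on days 0, 3, 4, 5 and 7. The heme cultures stood at 76.8, 213, 267, 259.8 and 333 CPM on the same days. The heme culture was thus above the control culture on every day, including the days before heme was added. The ratio of heme to control was 1.54 (95% interval 1.26 to 1.88) on day 0, 1.40 (1.35 to 1.45) on day 3, 1.80 (1.73 to 1.87) on day 4, 1.81 (1.73 to 1.88) on day 5 and 2.63 (2.54 to 2.73) on day 7. The day 7 ratio was 1.88 times that of day 3. Within the control library the day 7 level was 0.829 times the day 3 level, whereas within the heme library it was 1.56 times the day 3 level.

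**Figure D1:**
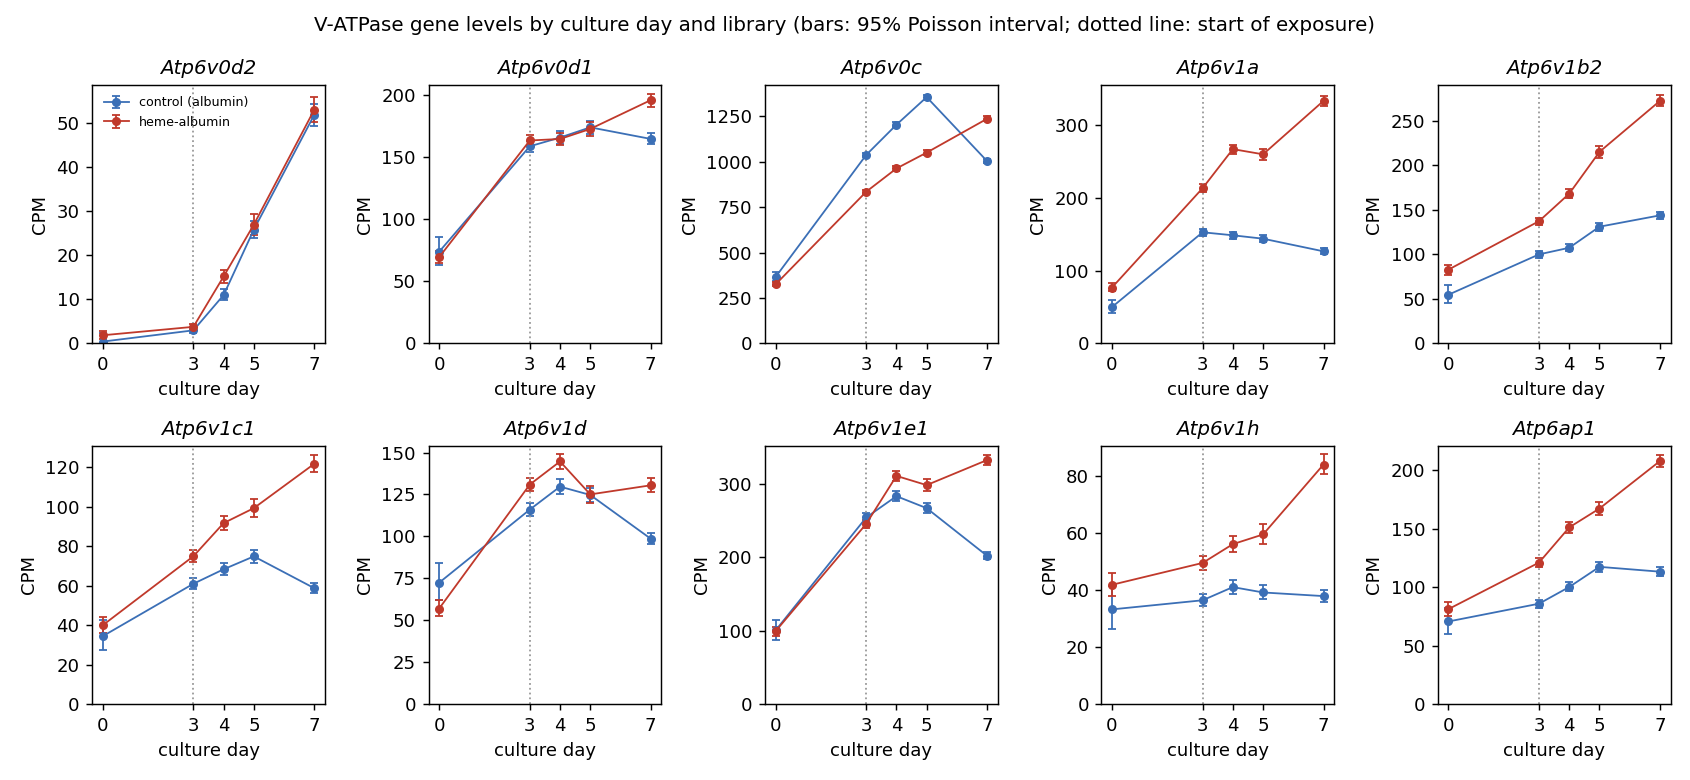
Level of each of the 10 pump genes in CPM (vertical axes, each from 0) against culture day (horizontal axes) in the control library (blue) and the heme library (red), with bars for 95% Poisson intervals and a dotted line at the addition of heme on day 3. Atp6v1a reached 333 CPM with heme and 127 CPM in the control on day 7, whereas both lines of Atp6v0d2 ended near 52 CPM.

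The other V1 members of the list followed the same order on day 7 with smaller ratios. Atp6v1b2, the widely expressed B subunit that pairs with A around the ATP sites, was at 54.8, 100.1, 108, 131 and 144 CPM in the control cultures of days 0, 3, 4, 5 and 7. Its heme cultures of these days held 82.9, 137, 168, 215 and 272 CPM, above the control culture each time. Its ratio was 1.37 (1.31 to 1.44) on day 3 and 1.89 (1.83 to 1.96) on day 7. Atp6v1h, the H subunit that couples V1 to V0, was at 33.2, 36.4, 41.0, 39.1 and 37.8 CPM without heme, a nearly level course after day 3. With heme it was at 41.8, 49.5, 56.0, 59.4 and 83.9 CPM, and its ratio went from 1.36 (1.26 to 1.47) on day 3 to 2.22 (2.07 to 2.38) on day 7. Atp6v1c1, the C subunit that clasps the peripheral stalks and leaves V1 when the pump comes apart, was at 61.1 CPM on day 3 and 58.8 CPM on day 7 in the control. In the heme cultures the gene was at 75.0 CPM on day 3 and 122 CPM on day 7, with ratios of 1.23 (1.16 to 1.31) and 2.07 (1.96 to 2.19).

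Both remaining V1 genes had lower day 3 ratios than these, whereas the accessory gene did not. Atp6v1e1, a peripheral stalk subunit, was at 254 CPM in the control and 245.5 CPM in the heme culture on day 3, a ratio of 0.966 (0.936 to 0.997). By day 7 it was at 202 CPM in the control and 332 CPM in the heme culture, and the ratio was 1.65 (1.59 to 1.70). Atp6v1e1 therefore had the lowest day 3 ratio of the 6 V1 members and passed 1.5 on day 7. Atp6v1d, part of the central rotor, was at 116 and 131 CPM on day 3 and at 98.6 and 130.5 CPM on day 7 in control and heme. Its ratio was 1.13 (1.08 to 1.18) on day 3, 1.00 (0.951 to 1.06) on day 5 and 1.32 (1.26 to 1.39) on day 7, the lowest of the 6 V1 members on that day. Atp6ap1, the accessory subunit also called Ac45 that is needed for V0 assembly, was at 85.9 CPM on day 3 and 113 CPM on day 7 in the control. In the heme cultures it was at 121 CPM on day 3 and 208 CPM on day 7, with ratios of 1.41 (1.34 to 1.48) and 1.83 (1.76 to 1.91).

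The V0 members had lower ratios on day 7 than the V1 members and Atp6ap1. Atp6v0c encodes the proteolipid of the proton-carrying ring and lies at chr17:24163866-24169702. The control cultures held 366, 1038, 1205, 1356 and 1004 CPM on days 0, 3, 4, 5 and 7. The heme cultures held 325, 836, 964, 1051 and 1237 CPM on these days. The day 7 level was 1.48 times the day 3 level within the heme library and 0.967 times within the control library. Relative to the control, Atp6v0c was thus above its day 3 ratio on day 7 only. On days 4 and 5 it was 1.16 and 1.31 times the day 3 level in the control. In the heme library it was 1.15 and 1.26 times that level on these days. The heme culture was the lower on days 0 to 5 and the higher on day 7, with ratios of 0.805 (0.792 to 0.818) on day 3, 0.775 (0.761 to 0.788) on day 5 and 1.23 (1.21 to 1.25) on day 7. This order depended on the cells kept: in all barcodes with 1 hashtag the day 5 ratio was 1.03, and the day 7 ratio was 1.36. Scaled by edgeR TMM factors, the day 7 ratio was 1.04. Reads shared with the processed pseudogenes Atp6v0c-ps1 and Atp6v0c-ps2 were not separated here.

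Atp6v0d1 encodes the widely expressed d subunit that joins the ring to the rotor. It was at 73.7, 158, 165, 174 and 164 CPM in the control and at 69.4, 163, 164, 172 and 196 CPM in the heme cultures of days 0, 3, 4, 5 and 7. The libraries lay within counting error of each other through day 5, and the ratio on day 7 was 1.19 (1.14 to 1.24). Under TMM factors it was 1.00, and the median ratio of all genes on day 7 was 1.20. Atp6v0d1 was thus the V0 gene whose ratio lay closest to the median gene on day 7, with a value of 0.991 relative to it.

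**Figure D2:**
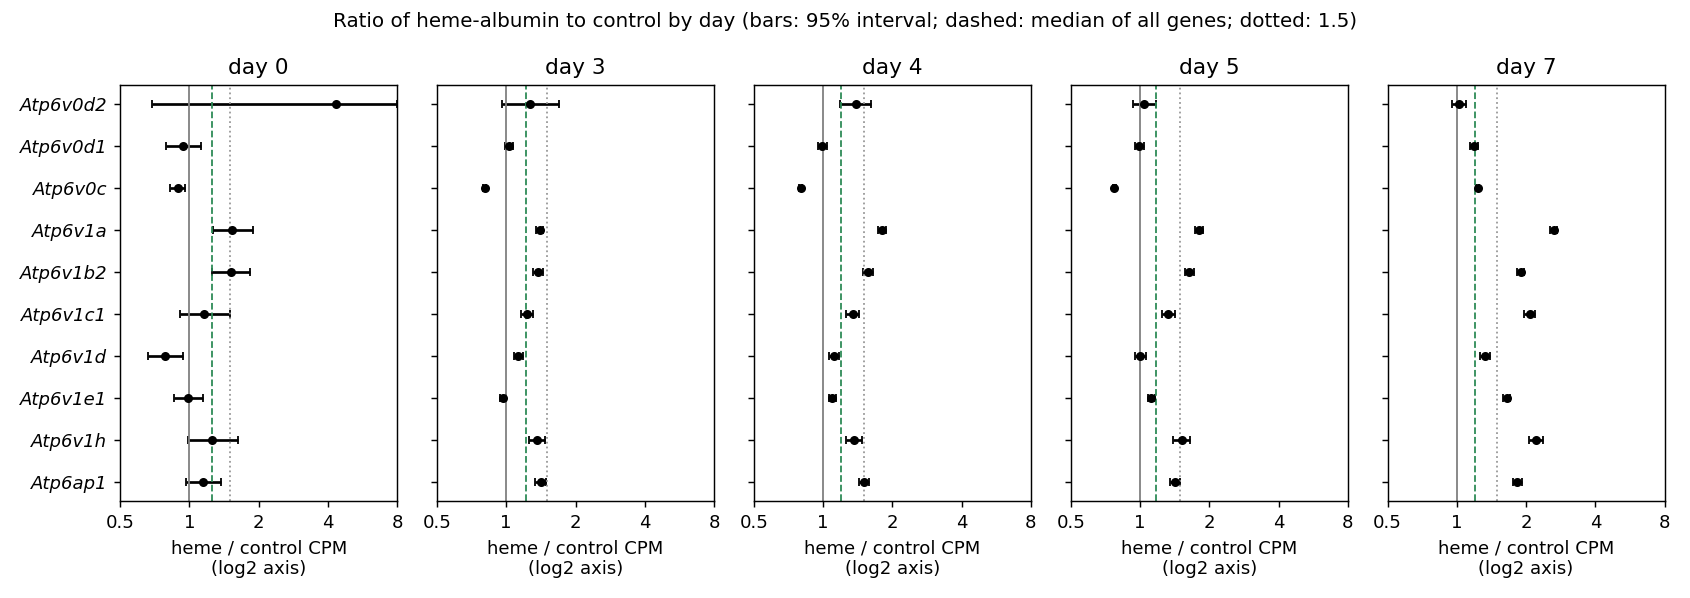
Ratio of heme to control CPM (horizontal axes, log2 scale) for each pump gene (rows) on each culture day (panels), with 95% intervals, a dashed line at the median of all genes and a dotted line at 1.5. On day 7 the ratios ran from 1.02 for Atp6v0d2 to 2.63 for Atp6v1a, and the upper bound of Atp6v0d2 on day 0, where the control held 1 UMI, lies beyond the axis.

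Across the list, 6 of 10 members had a ratio of 1.5 or more on day 7, against 29.7% of all genes tested, and none had a ratio of 1/1.5 or less, against 11.7% of all genes. The 6 were 5 of the 6 V1 genes and Atp6ap1. On day 4 the count was 3 of 10 against 26.4% of all genes, with no member lower against 9.27%. Day 5 gave 3 of 10 against 23.9%, with no member lower against 9% of all genes. Before the exposure the counts were 0 of 10 on day 3 against 26.1% and 3 of 10 on day 0 against 30.8% of all genes. Up to day 5 the share of members past 1.5-fold was therefore close to the share of all genes or below it. The median log2 ratio of the members was 0.21, 0.32, 0.44, 0.28 and 0.80 on days 0, 3, 4, 5 and 7, beside 0.32, 0.28, 0.26, 0.23 and 0.26 for all genes. Taken relative to the median gene of the day, a setting chosen after seeing the data, 5 members were past 1.5-fold on day 7 and 0 on day 4. The day 7 count was 5 under TMM factors and 7 over all barcodes with 1 hashtag. The share of all genes past 1.5-fold was not counted under these settings, so these counts stand without a background.

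Atp6v0d2, the d isoform of macrophages and osteoclasts, behaved differently from the other members. Its gene lies at chr4:19876841-19922605 on the minus strand. The control cultures held 1, 87, 285, 664 and 1701 of its UMIs on days 0, 3, 4, 5 and 7, which gives 0.431, 2.98, 11.0, 25.8 and 51.8 CPM. The heme cultures held 19, 124, 417, 522 and 1428 UMIs, or 1.86, 3.78, 15.2, 26.9 and 53.0 CPM. Its level was thus in the same order of days in both libraries, and each step after day 3 exceeded counting error. On day 7 it was 17.4 times (14.0 to 21.8) the day 3 level in the control and 14.0 times (11.7 to 17.0) in the heme library. The other 9 members ranged from 0.794 to 1.44 times in the control and from 0.996 to 1.98 times in the heme library over this interval, and the median gene was at 1.01 in both.

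Summed over the kept cells of a culture, Atp6v0d2 lay close between the libraries on days 5 and 7 but not on day 4. The ratio of heme to control was 1.38 (1.19 to 1.61) on day 4, 1.04 (0.929 to 1.17) on day 5 and 1.02 (0.952 to 1.10) on day 7, and under TMM factors the last was 0.859. The day 0 ratio of 4.32 has an interval of 0.687 to 180 and is not informative. As a share of the UMIs of both d genes, which are counted per captured 3′ end and not divided by length, Atp6v0d2 made up 0.581%, 1.84%, 6.22%, 12.9% and 24.0% in the control on days 0, 3, 4, 5 and 7. The heme cultures had 2.62%, 2.26%, 8.46%, 13.5% and 21.3%. The share of Atp6v0d2 was thus larger on each later day from day 3 on in both libraries, with the heme culture above the control on day 4 and below it on day 7.

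**Figure D3:**
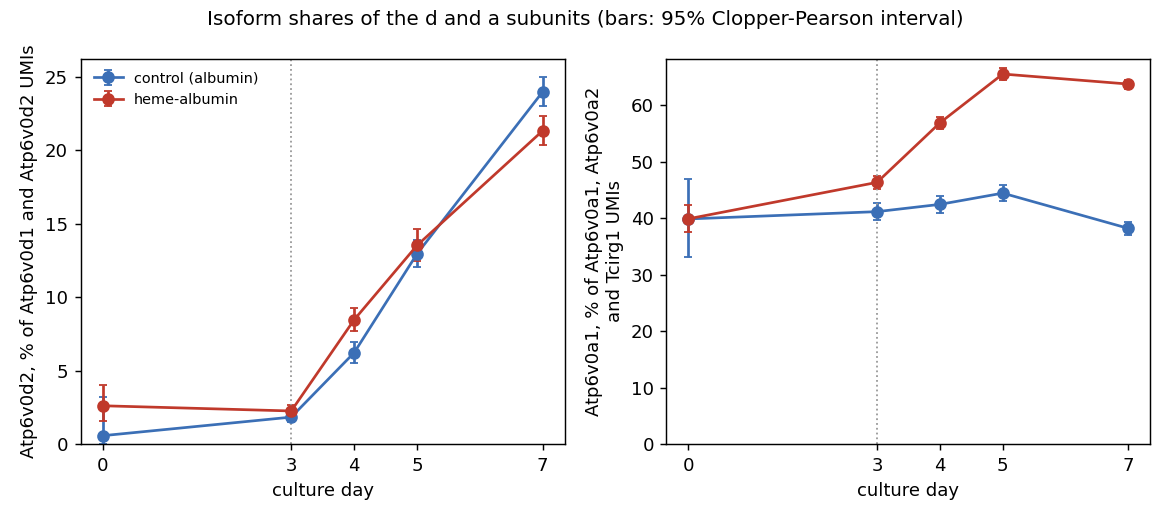
Share of Atp6v0d2 among the UMIs of both d subunit genes (left, in percent) and share of Atp6v0a1 among those of 3 a subunit genes (right, in percent) by culture day for the control (blue) and heme (red) libraries, with 95% Clopper-Pearson intervals. The d shares ended at 24.0% and 21.3%, whereas the a shares parted after day 3 and ended at 38.2% in the control and 63.8% with heme.

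The closeness of the culture sums rested on the limit of 5000 genes per cell. Cells with 1 hashtag and more than 5000 genes numbered 181, 153, 218 and 152 in the control library on days 3, 4, 5 and 7 and 1175, 516, 754 and 756 in the heme library. In these cells Atp6v0d2 was at 2.61, 7.69, 19.3 and 58.4 CPM in the control on these days. The heme cells over the limit held 4.50, 53.3, 87.9 and 133 CPM. The ratio in them was 4.55 (3.88 to 5.36) on day 5 and 2.28 (2.04 to 2.56) on day 7. They carried 84.3% of the Atp6v0d2 UMIs and 62.0% of all UMIs of the heme singlets on day 5, against 19.7% and 24.4% in the control. Over all barcodes with 1 hashtag the Atp6v0d2 ratio reached 2.71 for day 5 and 1.91 for day 7, in place of 1.04 and 1.02 in the kept cells, and the d share of the day 7 heme culture was 32.8%.

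The barcodes over the limit had median depths of 33716.5 UMIs in the control and 32226 UMIs in the heme library on day 7, beside 12171 and 13627 UMIs in kept cells. How many of them hold more than 1 cell of the same culture was not tested, and the Atp6v0d2 ratios of all barcodes with 1 hashtag rest on them in large part. Of these cells on day 7, 47.0% carried 3 or more Marco UMIs and passed no other gate in the heme library, and 50.7% carried 3 or more C1qb UMIs in the control. Cells with 5 or more Atp6v0d2 UMIs made up 27.0% of them in the heme and 15.1% in the control library. The part of the Marco-gated cells in the difference was not tested. Other members changed less across the limit on day 7. Atp6v1a had a ratio of 2.30 (2.14 to 2.48) over the limit and 2.63 among kept cells. Atp6v1d had 1.23 (1.12 to 1.34) and 1.32. On day 5 Atp6v0c crossed 1, at 1.25 (1.22 to 1.27) over the limit and 0.775 among kept cells.

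**Figure D4:**
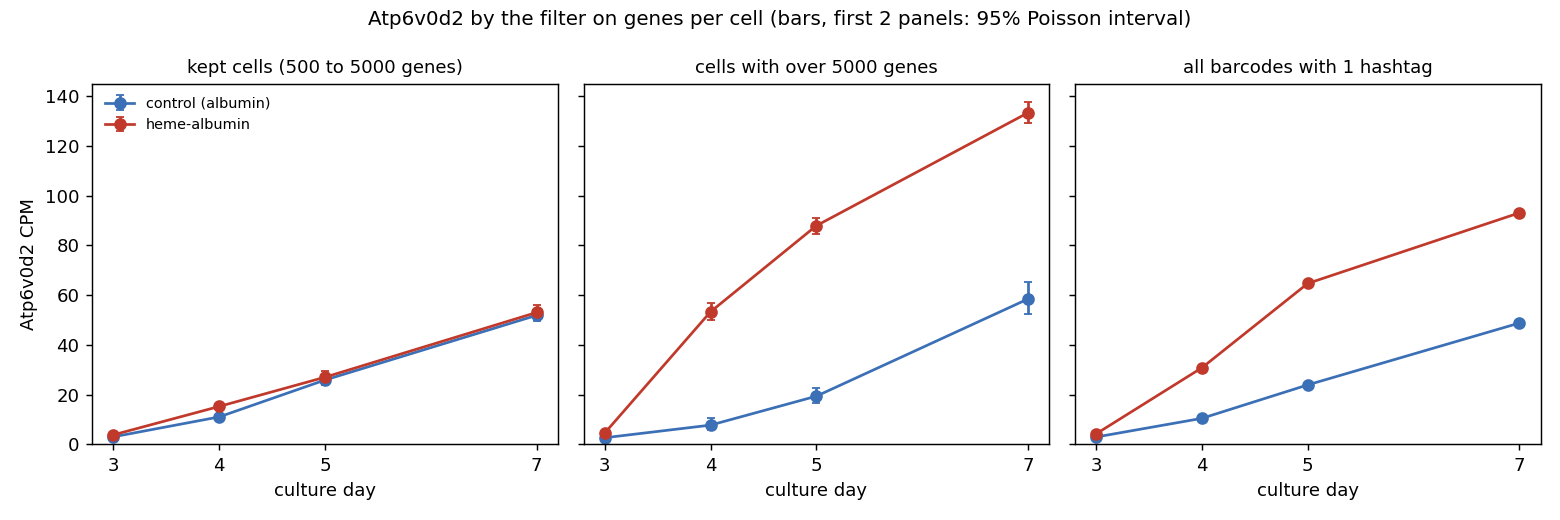
Atp6v0d2 level in CPM (vertical axis) by culture day (horizontal axis) in kept cells, in cells with more than 5000 genes and in all barcodes with 1 hashtag, for the control (blue) and heme (red) libraries, with 95% Poisson intervals in the left and middle panels. The libraries end at 51.8 and 53.0 CPM in the left panel and stand at 58.4 and 133 CPM on day 7 in the middle panel.

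To see which cells carried the pump genes, cells were gated on Marco, a scavenger receptor of macrophages, on C1qb, a complement gene of macrophages, and on Ccr7, a chemokine receptor of migrating dendritic cells, each at 3 or more UMIs. The last gate took cells in which S100a8, an abundant gene of neutrophils, made up 2% or more of the UMIs. On day 7 the heme culture held 708 Marco-gated, 402 S100a8-gated and 846 ungated cells. The control culture held 595 C1qb-gated, 368 Ccr7-gated, 103 S100a8-gated and 1457 ungated cells. Gates under 50 cells, among them Marco in the control and C1qb in the heme culture, are not described.

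Atp6v0d2 on day 7 was highest in ungated cells, at 69.2 CPM (64.3 to 74.4) with heme and 67.1 CPM (63.4 to 71.1) in the control, which overlap. Next came the Marco-gated heme cells at 55.5 CPM (51.3 to 59.9) and the C1qb-gated control cells at 46.8 CPM (42.5 to 51.4), whose intervals just touch. Far below lay the S100a8-gated heme cells at 4.66 CPM, the Ccr7-gated control cells at 4.22 CPM and the S100a8-gated control cells at 2.06 CPM, whose intervals overlap. The gene was thus 11.1 times (7.09 to 18.3) as high in C1qb-gated as in Ccr7-gated control cells. Marco-gated heme cells were at 11.9 times (7.38 to 20.6) the level of S100a8-gated heme cells. Among ungated cells the ratio of heme to control was 2.44 (2.06 to 2.91) on day 4, 1.61 (1.41 to 1.83) on day 5 and 1.03 (0.939 to 1.13) on day 7, so the libraries were closest on the last day. The S100a8-gated cells differed between the libraries on day 5, at 10.1 CPM (86 UMIs) in the control and 2.92 CPM (30 UMIs) with heme.

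**Figure D5:**
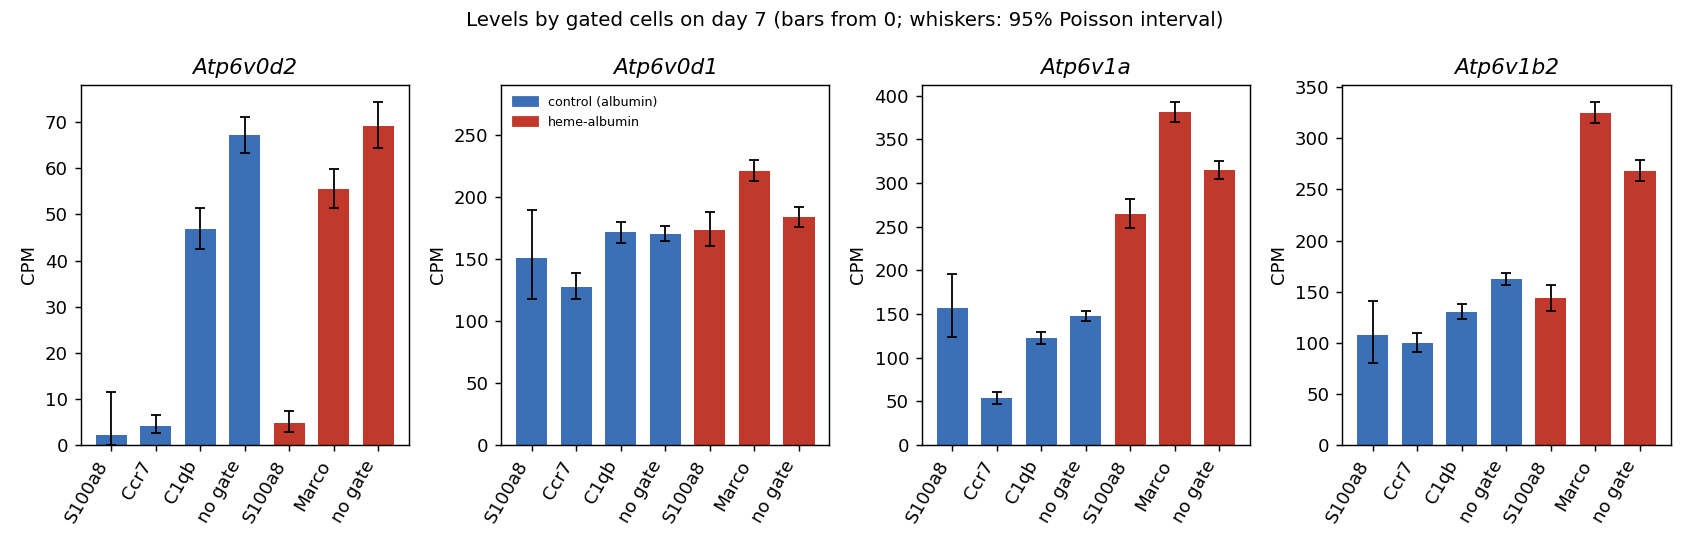
Levels of Atp6v0d2, Atp6v0d1, Atp6v1a and Atp6v1b2 in CPM (vertical axes from 0) in gated and ungated cells of day 7 from the control (blue) and heme (red) libraries, with 95% Poisson intervals. Atp6v0d2 was under 5 CPM in the S100a8 and Ccr7 gates, whereas Atp6v1a was lowest in Ccr7-gated cells at 53.8 CPM and highest in Marco-gated cells at 381 CPM.

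Atp6v1a, in contrast, was present in each gate and separated the libraries within the S100a8 gate and among ungated cells. On day 7 it was at 381 CPM in Marco-gated, 315 in ungated and 265 in S100a8-gated heme cells. The control cells held 157 CPM in the S100a8 gate, 147 without a gate, 122 in the C1qb gate and 53.8 in the Ccr7 gate. Each heme group was therefore above each control group. Among ungated cells the ratio of heme to control was 1.37 (1.30 to 1.44) on day 3, 2.02 (1.89 to 2.15) on day 4, 1.88 (1.76 to 2.01) on day 5 and 2.14 (2.03 to 2.25) on day 7. Among S100a8-gated cells it was 1.54 (1.46 to 1.64) on day 3, 1.81 (1.72 to 1.91) on day 4 and 1.69 (1.34 to 2.16) on day 7. On day 5 these cells were at 173 CPM in the control and 278 CPM with heme. The difference in this gate was thus present before the exposure and was larger on day 4. The day 7 interval overlaps that of day 3, but it rests on 103 control cells with 76 Atp6v1a UMIs.

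Counts over the list differed between the gates. In ungated cells 0 of 10 members were past 1.5-fold on day 3, against 21.3% of all genes, and 5 of 10 on day 7, against 24.4%. In the S100a8 gate the counts were 4 of 10 on day 3 against 37% and, on day 7, 4 of the 9 members with 20 or more UMIs against 30.5% of all genes. The day 3 share of this gate was thus near that of all genes. Atp6v0d2 counted on day 3, with 29 heme and 7 control UMIs, but not on day 7, with 17 and 1. The median member ratio of this gate was 1.37 on day 3 beside 1.30 for all genes, and 1.53 on day 4 beside 1.35. Its day 5 cells had a median member ratio of 1.11 beside 1.25 for all genes, with Atp6v0d2 at 0.290 and Atp6v0c at 0.646. On day 7 the 9 members with 20 or more UMIs had a median of 1.34 beside 1.19 for all genes. In the Ccr7 gate of day 5, 9 members with 20 or more UMIs ran from 0.647 for Atp6v0d1 to 1.57 for Atp6v1e1. Marco-gated heme cells set against C1qb-gated control cells of day 7 gave 6 of 10 past 1.5-fold against 32.8% of all genes. Their median ratio was 1.95 beside 1.22 for all genes, with a range from 1.19 for Atp6v0d2 to 3.12 (2.92 to 3.33) for Atp6v1a. In the control, C1qb-gated over Ccr7-gated cells had a median member ratio of 2.05 on day 7 beside 1.25 for all genes, from 1.31 for Atp6v1b2 to 11.1 for Atp6v0d2. Atp6v0c was 2.26 times (2.15 to 2.36) and Atp6v1a 2.27 times (1.98 to 2.61) as high in the C1qb gate, so the Ccr7-gated cells were the lower of the pair for every member.

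To compare shares of cells at equal depth, each cell was thinned to 3000 UMIs and shallower cells were left out, 172 control and 112 heme cells on day 7, of which 40 heme cells were S100a8-gated. On day 7 an Atp6v0d2 UMI was found in 11.7% (10.4 to 13.1) of 2393 control and 9.47% (8.19 to 10.9) of 1900 heme cells. The background in cells that carry little of the gene was 0.276% (0.00699 to 1.53) in S100a8-gated heme cells of day 7 and 0.525% (0.171 to 1.22) in heme cells of day 0. Without thinning, the day 7 shares were 25.5% without and 21.1% with heme, at median depths of 12171 and 13627 UMIs, and 3.48% in the S100a8-gated heme cells, at 7492.5 UMIs. An Atp6v1a UMI was found in 31.0% (29.2 to 32.9) of the thinned control and 60.2% (58.0 to 62.4) of the thinned heme cells of day 7. On day 3 these Atp6v1a shares were 34.4% (32.2 to 36.6) and 45.6% (43.5 to 47.8), so the difference between the libraries was larger after the exposure than before it.

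Atp6v0d2 was concentrated in few cells. Among day 7 cells outside the S100a8 and Ccr7 gates, 99 of 2064 control cells held 5 or more of its UMIs and together 42.6% of them. In the heme culture 102 of 1567 cells did so and held 61.4%, with up to 25 UMIs in a cell. Cells with 0 of its UMIs numbered 1430 and 1167. For comparison, 5 or more Atp6v1a UMIs were found in 795 of these heme cells, and 117 had none.

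The cells with 5 or more Atp6v0d2 UMIs had been chosen by that gene, so their other genes are a description. Ranked by the lower of the ratios in the 2 libraries against cells with 0 UMIs, H2-M2, Gpnmb, Gstm2, Bhlhe41, Fabp4, Ppbp, Ctsk and Procr came first. Gpnmb, a glycoprotein of phagocytes and osteoclasts, was at 1311 CPM against 114 CPM in the control and at 2487 CPM against 343 CPM with heme. Fabp4, a lipid carrier, was at 212 against 5.69 CPM in the control and at 77.6 against 16.0 CPM with heme. Ctsk, the cathepsin of osteoclasts, was 15.9 times (10.6 to 24.2) and 4.25 times (2.99 to 5.97) as high. Among the pump genes, Atp6v1a was 2.21 times (1.99 to 2.45) as high in these control cells and 1.23 times (1.14 to 1.32) in these heme cells, and Atp6v0d1 1.28 and 0.981 times. The chosen cells were also deeper, with median depths of 16790 against 11521 UMIs in the control and 20604.5 against 13856 UMIs with heme.

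Since Atp6v0d2 also marks osteoclasts, their markers were read in the same cultures. On day 7 Acp5 was at 24.8 CPM in the control and 5.86 CPM in the heme culture, Dcstamp at 82.5 and 27.5 CPM and Ocstamp at 10.2 and 0.816 CPM, all lower with heme. Ctsk was at 7.16 and 8.83 CPM, Nfatc1 at 23.8 and 33.4 CPM, Tnfrsf11a at 15.45 and 13.5 CPM and Mmp9 at 35.7 and 26.6 CPM. Itgb3, the integrin of osteoclasts, was higher with heme at 5.27 CPM against 0.762 CPM. It was already higher on day 3, before the exposure, at 8.83 CPM against 3.11 CPM. Of the 10 osteoclast markers 8 were measured on day 7, and their summed level was 200.4 CPM in the control and 122 CPM with heme. Calcr and Oscar, which define mature osteoclasts, had at most 2 UMIs in a culture of day 7. The part of these cells in the Atp6v0d2 level was not tested.

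Over the 10 cultures, the genes with levels most like those of Atp6v0d2 among 7912 genes with a mean of 10 CPM or more were Anpep, Cd200r4, Ccdc80, Ctsb, Mmp12, Flrt3, Nfkbie and Fuca1, by Pearson's r of log2(CPM + 1) from 0.971 to 0.996. Anpep, an aminopeptidase of myeloid cells, was at 4.14 CPM on day 3 and 29.3 CPM on day 7 in the control and at 4.87 and 32.7 CPM with heme, close to the course of Atp6v0d2. The summed level of the other 9 members was most like Atp6v0b, which encodes another proteolipid of the ring, with r = 0.987, followed by Uap1l1, Csf2ra and Arl8a. The member most like Atp6v0d2 was Atp6v1b2 with r = 0.847, at rank 395 among these genes. These values describe 10 cultures that share libraries, culture days and depth.

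Another 15 pump genes were listed as the rest of the enzyme, of which 9 had 100 or more UMIs on day 7. On that day 2 of the 9 had a ratio of 1.5 or more, against 29.7% of all genes, and 0 a ratio of 1/1.5 or less, against 11.7%. Atp6v0a1, an a subunit that steers the pump to its compartment, had the highest ratio of all pump genes. It was at 34.9, 56.5, 71.4, 90.6 and 77.8 CPM in the control and at 65.5, 108, 165, 256 and 325 CPM in the heme cultures of days 0, 3, 4, 5 and 7. Heme stood above control on every day, by 1.92 times on day 3 and 4.18 times (4.00 to 4.37) on day 7. Tcirg1, the a3 isoform of osteoclast and lysosome pumps, was at 83.3 CPM in the control and 147 CPM with heme on day 7, a ratio of 1.76. Atp6v0a2 had a ratio of 0.894 on that day. As a share of the UMIs of these 3 a genes, Atp6v0a1 was at 41.2% and 46.4% on day 3 and at 38.2% and 63.8% on day 7 in control and heme. In kept cells the a subunit shares of day 7 thus lay further apart between the libraries than the d subunit shares. Among ungated cells the day 7 ratio of Atp6v0a1 was 3.68 (3.46 to 3.91), and in S100a8-gated cells it was 2.16 (1.95 to 2.39) on day 3 and 2.07 (1.53 to 2.86) on day 7.

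The remaining rotor, stalk and ring genes lay between 0.687 and 1.45 on day 7. Atp6v0e, a small V0 subunit whose promoter window held a CLEAR core, was at 597 CPM in the control and 411 CPM with heme, a ratio of 0.687. Atp6v1f and Atp6v1g1, small V1 subunits, had ratios of 0.814 and 0.878, and Atp6v0b and Atp6ap2 had 1.45 and 1.38. Atp6v1g2 had 1.24 on 117 UMIs in both cultures together. Ratios of the genes of this enzyme were therefore unequal. The V1 subunits A, B2, C1, E1 and H, the a1 and a3 subunits and Atp6ap1 were past 1.5-fold on day 7. The F and G1 subunits of V1 were below 1, as were Atp6v0a2 and Atp6v0e of V0.

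Genes that assemble or regulate the pump showed the same spread. Of 9 measured on day 7, 4 had a ratio of 1.5 or more, against 29.7% of all genes, and 1 of 1/1.5 or less, against 11.7%. Dmxl2 and Wdr7, the partners in the complex that reassembles V1 with V0, had the highest ratios, 4.15 (3.87 to 4.44) and 3.14 (2.76 to 3.57). Rogdi, a further partner in that complex, had the lowest at 0.443 (0.411 to 0.476), followed by Ccdc115 at 1.04. On day 3, before the exposure, 4 of 9 were already past 1.5-fold, against 26.1% of all genes.

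The MiT/TFE factors bind CLEAR elements, and 4 of 4 had a ratio of 1.5 or more on day 7, against 29.7% of all genes, compared with 1 of 4 on day 3, against 26.1%. Tfec was at 43.5 CPM in the control and 181 CPM with heme on day 7, a ratio of 4.15 (3.91 to 4.41). Mitf was at 29.8 and 81.3 CPM, a ratio of 2.73 (2.53 to 2.94). Tfeb and Tfe3 had 1.70 (1.52 to 1.90) and 1.58 (1.46 to 1.72), which relative to the median gene were 1.42 and 1.32 and over their day 3 ratios 1.21 and 1.09, all under 1.5. Among ungated cells Tfec had a ratio of 1.28 on day 3 and 3.43 on day 7. Of 12 genes of the Ragulator, the Rag GTPases and their folliculin and amino acid partners, which tie the pump to mTORC1 on the lysosome, 5 were past 1.5-fold on day 7, against 29.7% of all genes, and 0 lower, against 11.7%, with the folliculin partner Fnip2 at 4.81 and Rragd at 2.86 highest, and Lamtor1 at 0.734 and Lamtor2 at 1.01 lowest.

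Of 37 lysosomal genes, 16 had a ratio of 1.5 or more on day 7, against 29.7% of all genes, and 2 of 1/1.5 or less, against 11.7%. On day 3 there were 8 past 1.5-fold, a smaller share than the 26.1% of all genes. The highest were Slc11a1, an iron transporter of phagosomes, at 5.59, Slc48a1, a heme transporter of the lysosome, at 5.00, Npc1, a cholesterol exporter, at 2.97 and Lipa, the acid lipase, at 2.85. Ctsz, a lysosomal cathepsin, was among the lower genes at 0.642. The median log2 ratio of the lysosomal list was 0.47 on day 7 and 0.33 on day 3, below the 0.80 of the pump members on day 7 and close to their 0.32 on day 3.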

How the data were processed

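The authors deposited raw UMI counts per gene and barcode for 2 single-cell libraries, with hashtag calls per barcode. Their processing notes name Cell Ranger 4.0.0, Seurat 3.2.3, Scanpy 1.6.0, R 4.4 and build GRCm38.p6, while the matrix headers name Cell Ranger 5.0.0. The counting annotation is not given in the sources used here. The members and gene lists were chosen with earlier results of these data known.

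Barcodes called Singlet were kept with 500 to 5000 genes, under 15% mitochondrial UMIs (37 genes) and under 30% ribosomal protein UMIs (89 genes). The study words the last limits the other way, and they were read as upper limits. Doublets were removed through the hashtag calls only, so doublets within a culture remain. UMIs were summed per culture and given as CPM. Intervals were exact Poisson for levels, exact conditional binomial for ratios and Clopper-Pearson for shares. Ratios needed 20 UMIs for members and 100 UMIs for other genes over both cultures together, and a fold of 1.5 was used for counts. Lists, in place of a test, are given by counts and medians beside all genes. A cell entered 1 gate only, cells with Marco and C1qb were a group of their own, and groups of 50 or more cells were described. Likeness over cultures used Pearson's r of log2(CPM + 1) among genes with a mean of 10 CPM or more.

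All members were named, together with pump genes measured on day 7, the 2 highest and 2 lowest ratios of the regulator and Ragulator lists, all MiT/TFE factors, the 4 highest and 2 lowest lysosomal ratios (1 of which is not reported here), and the 8 genes of highest likeness. The genes of cells with 5 or more Atp6v0d2 UMIs were chosen after their values were seen. Of 11 listed regulators 10 were found by symbol. Alternatives used edgeR 4.0.16 TMM factors and DESeq2 1.42.0 size factors in R 4.3.3, other denominators, filters, gates and thinning, and, chosen after seeing the data, leaving out shared barcodes and setting ratios relative to the median gene. Ratios and intervals were tested on simulated data, with Python 3.11.15, numpy 2.4.6, scipy 1.17.1, pandas 2.3.3 and matplotlib 3.10.9.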

Additional observations from a re-analysis of the deposited data

Results flagged for a closer look

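Atp6v0c was lower in the heme than in the control culture on days 4 and 5, with ratios of 0.800 and 0.775, and higher on day 7, with a ratio of 1.23. The order of the libraries thus turned between culture days, and the difference between the days was not tested, since each day is 1 culture per library. In all barcodes with 1 hashtag the day 5 ratio was 1.03, and under TMM factors the day 7 ratio was 1.04.

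The barcodes that entered no comparison also carried the pump genes. In 1218 heme and 652 control barcodes with no hashtag call, Atp6v1a was at 110 and 62.5 CPM, a ratio of 1.76 (1.501 to 2.08). In 1996 heme and 1259 control barcodes called as hashtag doublets, it was at 242 and 139 CPM, a ratio of 1.74 (1.68 to 1.80). Atp6v0d2 in the doublets was at 43.3 and 19.7 CPM, a ratio of 2.19 (2.01 to 2.39). These barcodes mix culture days, so their ratios stand beside no single day.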

How the results depend on the processing

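Each group was 1 library, so no replicate could be left out. No paired analysis was possible because each group had 1 library and no replicate number to pair. No ratio past 1.5-fold turned to the other side of 1 under any alternative run. Of all 50 member ratios, however, 12 crossed 1 under TMM factors, 10 under DESeq2 factors, 5 under each of the other denominator and cell filters and 0 without barcodes found in both libraries (chosen after seeing the data), as did 4 of 30 over the day 3 ratio. The members' median changed sign on 3 of 5 days under TMM and on 1 under DESeq2. TMM factors moved the median log2 ratio of all genes by -0.25 to -0.33 and DESeq2 factors by -0.23 to -0.31, depending on the day. Under TMM factors the members' median log2 ratio was -0.0095, 0.16, -0.0073 and 0.55 on days 3, 4, 5 and 7, and under DESeq2 factors 0.053, 0.20, 0.049 and 0.56. Without mitochondrial and ribosomal protein genes in the denominator it was 0.21 on day 5 and 0.70 on day 7. Over all barcodes with 1 hashtag, or with 500 or more genes and no upper limit, it was 0.57 on day 4, 0.46 on day 5 and 0.92 on day 7. Divided by the day 3 ratio it was 0.11, 0.063 and 0.54, and without Atp6v0d2 it was 0.41 on day 5 and 0.88 on day 7.

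The count of members at 1.5-fold or more was 1 on day 0 under TMM, DESeq2 and relative to the median gene. On day 4 it was 0 under TMM, relative to the median gene and over the day 3 ratio, and 1 under DESeq2 and without mitochondrial and ribosomal protein genes. On day 5 it was 0 under TMM and over the day 3 ratio, and 1 under DESeq2 and relative to the median gene. The count at 1/1.5 or less was 1 on days 0, 3, 4 and 5 under TMM, on days 0 and 5 under DESeq2 and on days 0, 3 and 5 relative to the median gene. The share of all genes past 1.5-fold was not counted under these settings, so these counts stand without a background. The cause of these changes was not tested beyond the shift of all genes given above.

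Over all barcodes with 1 hashtag the Atp6v0d2 share of d subunit UMIs in the heme cultures was 14.6% on day 4, 25.8% on day 5 and 32.8% on day 7. The median member ratio was then 1.62 in ungated cells and 1.82 for Marco-gated over C1qb-gated cells on day 7. Without thinning, an Atp6v0d2 UMI was found in 2.44%, 5.48%, 10.8% and 25.5% of control cells on days 3, 4, 5 and 7, and in 1.70%, 3.78%, 6.13%, 8.81% and 21.1% of heme cells on days 0, 3, 4, 5 and 7. Thinned to 6000 UMIs, the shares were 0%, 1.54%, 3.02%, 8.20% and 18.2% in the control on days 0, 3, 4, 5 and 7 and 1.78%, 4.73%, 8.26% and 16.0% with heme on days 3, 4, 5 and 7. Depth limits the day 0 control culture most, which held 1 Atp6v0d2 UMI.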
